A study of Mus musculus with 8 samples.

Results

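The genes described here encode the proteins of the cytosolic and mitochondrial ribosomes, as expressed by mSSC, a stromal cell line derived from mouse spleen. They were chosen by symbol alone: Rpl, Rps, Rplp and Rpsa genes for the cytosolic ribosome and Mrpl and Mrps genes for the mitochondrial one, leaving out the S6 kinases and rows whose name ends in -ps, the mark of a pseudogene. In all, 155 of the 12589 genes of the expression table were members. Of these, 47 belonged to the cytosolic large subunit, 34 to the cytosolic small subunit, 45 to the mitochondrial large subunit and 29 to the mitochondrial small subunit. The RNA-seq covered 4 cultures treated with BMS493, an inhibitor of retinoic acid signaling, and 4 treated with its vehicle DMSO. The labels describe all of them as the YFP-carrying line mSSC-YFP and give a treatment of 48 h. All cultures stem from this 1 line, and the labels do not say whether they were set up separately.

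The value analysed is a log2 normalized expression that the authors averaged over all cultures for each gene, termed the deposited level below. It carries no spread between cultures, so no difference between genes can be set against replicate error, and no test was run. The study gives only an average depth over the samples, and the depth of single libraries is unknown. The effect of BMS493 on these genes was not analysed here, because the remaining columns of the table hold the authors' own comparison. To compare genes, the deposited level was divided by the length of the gene's exons in kb, on the log2 scale, and is then termed the level per length. The label of the line was checked against markers: all 8 stromal markers had a value, between 5.24 for Pdgfra and 13.29 for Col1a1, whereas no value was found here for the 4 B cell markers or the leukocyte gene Ptprc. A value was present for 1 of 3 macrophage, 2 of 3 endothelial and 2 of 3 epithelial markers, and of these only the epithelial cadherin Cdh1 was high, with a deposited level of 8.03. In such bulk RNA, fewer cells with a transcript and less of it per cell cannot be told apart.

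Ribosomes build proteins from mRNA. The cytosolic ribosome joins a small subunit, which decodes the mRNA, to a large subunit, which forms the peptide bond, and serves nearly all genes of the cell. The mitochondrial ribosome is assembled from a separate set of nuclear-encoded proteins, imported into the organelle, and translates the few mRNAs of the mitochondrial genome. Cytosolic ribosomal protein genes have also left many intronless copies in mammalian genomes, known as processed pseudogenes. Such a copy can match the spliced transcript letter for letter, as shown for the 3 genes below.

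The 3 genes were chosen, after their values were seen, because a copy was listed far above them. For Rps16, Rps13 and Rps6 the 60 coding bases around 1 exon junction are given. Each stretch runs 5′ to 3′, lies without a break in the copy, and has in capitals the 4 bases around the exon junction of the gene, 2 on either side.
Rps16: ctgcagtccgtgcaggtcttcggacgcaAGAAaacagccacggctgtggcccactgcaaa
Rps13: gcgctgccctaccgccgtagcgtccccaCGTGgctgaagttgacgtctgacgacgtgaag
Rps6: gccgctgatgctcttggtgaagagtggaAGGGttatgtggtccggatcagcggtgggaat
The Rps16 stretch joins exons 1 and 2 of its gene and lies in Rps16-ps2 at chr5:129128440-129128499 on the minus strand of GRCm38. The Rps13 stretch joins exons 2 and 3 and lies in Rps13-ps2 at chr7:88530797-88530856, also on the minus strand. The Rps6 stretch joins exons 2 and 3 and lies in Rps6-ps4 at chr2:75191655-75191714 on the minus strand. The sequences are those of GENCODE M21.

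Cytosolic ribosomal protein genes had the higher levels per length, with a median of 5.96 over 81 genes against 3.79 over the 74 mitochondrial genes. The difference of the medians was 2.17 on the log2 scale, or 4.49-fold, and the median over all genes with a length was 2.85. The sets overlapped. In level per length, 33 of the 81 cytosolic genes lay above the highest mitochondrial gene, Mrpl54, and 23 lay below the mitochondrial median. Only 1 of the 74 mitochondrial genes, Mrpl54, lay above the cytosolic median. In the table as a whole, 48 of 81 cytosolic and 2 of 74 mitochondrial genes were at or over percentile 90 by level per length, where 10% of all genes lie. Summed on the linear scale, the deposited levels of the cytosolic genes made up 2.39% of the total over all genes and those of the mitochondrial genes 0.289%.

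The cytosolic genes were also the more widely spread. Their levels per length reached from -1.18 for Rps13 to 11.09 for Rplp1, a span of 4952-fold, with an interquartile range of 4.30. The mitochondrial genes reached from 0.81 for Mrps36 to 6.54 for Mrpl54, a span of 53.2-fold, with an interquartile range of 1.64. Of the cytosolic genes, 6 of 81 were under percentile 25 of all genes by level per length, as were 3 of 74 mitochondrial genes. By deposited level, without regard to length, 15 of 81 cytosolic and 3 of 74 mitochondrial genes were. Every mitochondrial gene, 74 of 74, lay above the lowest cytosolic gene outside the paralog list, which was Rps13. Rps13 has shared sequence, described below. Among genes whose sequence is at least 90% unique, the lowest cytosolic gene outside the paralog list was Rpl39 at 5.24. Only 4 of the 58 mitochondrial genes lay above Rpl39. Rps4y2, which is on the paralog list, was lower at 1.29.

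**Figure D1:**
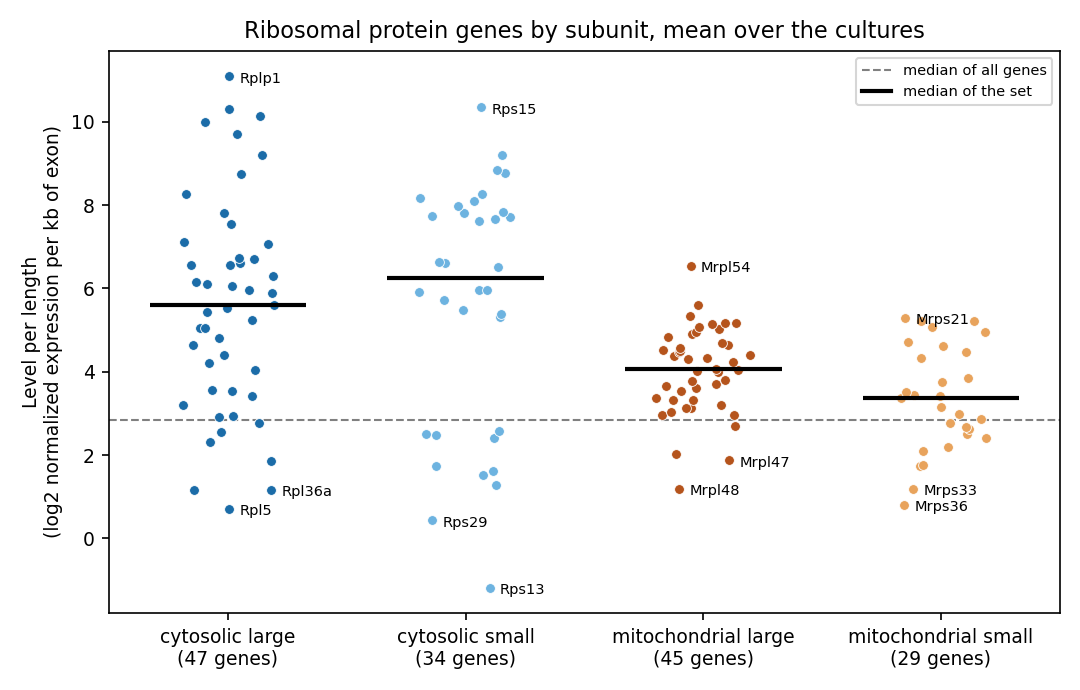
Level per length (log2 normalized expression per kb of exon, vertical axis) of each ribosomal protein gene, 1 point per gene, in the 4 sets, with the median of each set as a black bar and the median of all genes as a dashed line. The cytosolic sets reach from -1.18 to 11.09, whereas the mitochondrial sets stay between 0.81 and 6.54.

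Within the cytosolic ribosome the small subunit had a median level per length of 6.24 and the large subunit one of 5.59, a difference of 0.65 or 1.57-fold. This is small against the spread within each subunit, whose interquartile ranges were 5.31 and 3.35. Of the small-subunit genes, 21 of 34 lay above the large-subunit median, and 18 of the 47 large-subunit genes lay above the small-subunit median. The order of the subunits turned over when genes with shared sequence were left out (the large subunit was then higher by 0.37, over 14 genes in all). The small-subunit genes fell into a group of 24 between 5.32 (Rps10) and 10.35 (Rps15) and a group of 10 at 2.57 (Rps12) or lower, with no gene between them. The lower group includes the 3 members annotated as pseudogenes. The gap also rests on how copies are counted. With the values of pseudogene copies added, a step described below that can only raise levels, Rps27a came to 5.66 and Rps6 to 6.87. Rps16 came to 7.06, Rps29 to 8.48 and Rps13 to 3.69, whereas Rps12 was at 2.67 and Rps23 at 1.61.

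At the top of the large subunit stood 2 of the 3 proteins of the stalk, the flexible arm that recruits the translation factors. Rplp1 had a level per length of 11.09 and Rplp0, which anchors the stalk to the subunit, one of 10.31. Rplp2, the partner of Rplp1 in the stalk, was far lower in level per length at 6.71, rank 14 of 47. The size of this gap rests in part on the length used. With the length of the principal transcript Rplp2 was at 7.81 and Rplp1 at 11.09, and their deposited levels were 7.76 and 10.09. Rpl4, which lines the exit tunnel of the nascent chain, followed with a level per length of 10.15, Rpl32 with 9.99 and Rpl8, which lies near the site of peptide bond formation, with 9.72. Per length these were among the highest genes of the whole table, since Rpl8, the lowest of them, was at percentile 99.8.

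The lowest large-subunit gene was Rpl5, with a level per length of 0.71, a value 1338-fold under that of Rplp1. Rpl11 had a level per length of 1.17. Rpl5 and Rpl11 bind the 5S rRNA together and are known for holding Mdm2, the inhibitor of p53, when ribosome assembly stalls. Rpl36a, Rpl28 and Rpl38 had levels per length of 1.16, 1.86 and 2.32. Rpl38 is known for its part in translating Hox mRNAs in the embryo. Rpl13, the gene used as a qPCR reference in the study, had a deposited level of 4.94, at percentile 49.1 of all genes, and a level per length of 3.57, rank 35 of the 47. Only 21.1% of its sequence windows were unique, a measure described below, so its value is uncertain.

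In the small subunit, Rps15 led with a level per length of 10.35. The X-linked Rps4x had 8.85 and Rps3a1 had 8.28, at ranks 3 and 5 of the 34. At the other end were Rps13 at -1.18 and Rps29 at 0.43 in level per length. Rps16, which reaches toward the tRNA in the peptidyl site, was at 1.52 and Rps23, a protein of the decoding centre, at 1.61. Rps6, the substrate of the S6 kinases, was at 1.75, sixth from the bottom. From Rps15 to Rps13, genes of the same particle spanned 2958-fold in level per length.

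Many transcripts of cytosolic ribosomal proteins share sequence with other genes. Each transcript was read in windows of 100 bases, the read length of the study, and a window counted as unique if no other annotated gene held it on either strand. The median share of unique windows was 66.1% for the cytosolic genes and 100% for the mitochondrial genes. Only 5 of the 81 cytosolic genes had unique windows alone, against 41 of the 74 mitochondrial genes. At least 1 annotated pseudogene shared a window with 73 cytosolic and 12 mitochondrial genes. The largest number of pseudogenes that shared windows with 1 gene was 39. The study counted reads with a single place in the genome, so values of genes that share windows with a copy elsewhere are uncertain. The measure also counts windows shared with a gene that overlaps the member at the same place, as Mrpl46 overlaps Mrps11 on chromosome 7. A read from such a window can still have a single place in the genome. The 2 kinds of sharing were not told apart, so the share of unique windows is not a measure of lost reads.

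Level and uniqueness moved together among the cytosolic genes, and more weakly among the mitochondrial genes. The 30 cytosolic genes with under 50% unique windows had a median level per length of 5.22, the 37 between 50% and 90% one of 5.97, and the 14 with 90% or more one of 7.78. The mitochondrial medians rose as well, from 2.97 for 2 genes under 50% and 3.16 for 14 genes between 50% and 90% to 4.03 for 58 genes. Over the 81 cytosolic genes, Spearman's rho between the share of unique windows and the level per length was 0.45, and over the 74 mitochondrial genes it was 0.21. By subunit it was 0.43 for cytosolic large, 0.42 for cytosolic small, 0.11 for mitochondrial large and 0.34 for mitochondrial small. These are correlations across genes of 1 pooled mean, and genes are not independent replicates. Among the genes with 90% or more unique windows, the cytosolic median exceeded the mitochondrial one by 3.75 on the log2 scale. The lowest of those 14 cytosolic genes was Rps4y2. Whether shared sequence lowered the values of single genes was not tested.

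**Figure D2:**
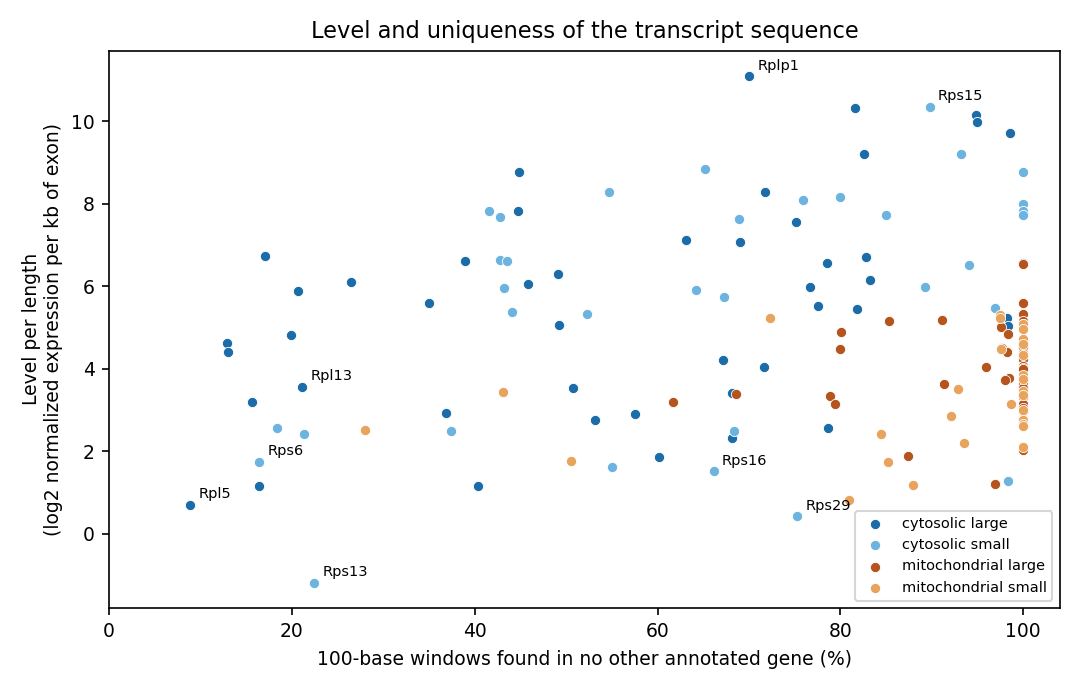
Share of 100-base windows of the transcript found in no other annotated gene (horizontal axis, %) against the level per length (vertical axis, log2 normalized expression per kb of exon), 1 point per gene, coloured by set. Most mitochondrial genes lie at or near 100%, and the low cytosolic genes Rps13, Rps6 and Rpl5 lie under 25%.

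The copies themselves had rows in the table. Processed pseudogenes that shared windows with a member and had a value numbered 70 for 51 cytosolic genes and 8 for 8 mitochondrial genes. For 19 cytosolic genes a copy had a higher deposited level than the gene, and for 2 mitochondrial genes as well. Of the 15 cytosolic genes lowest per length, 10 had such a higher copy and 3 others are themselves annotated as pseudogenes. Of the 15 highest, 0 had one. These groups of 15 were formed after the values were seen. The level of the gene both orders the genes and decides whether a copy counts as higher. No copy was listed above 8.61, so the contrast between the 2 groups was largely set by the ordering.

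Rps29 showed the widest gap. Its deposited level was -0.10, whereas its copy Gm14303 was listed at 7.94, which is 264-fold higher. Rps16 was listed at 1.86 and Rps16-ps2 at 7.37 in deposited level, a 45.7-fold difference. Rpl38 had 1.44 and Rpl38-ps2 6.71. Rps6 had 2.41 and Rps6-ps4 7.50, a 33.9-fold difference, with 83.6% of the windows of Rps6 found in that copy. Rps13 was listed at 0.25 and Rps13-ps2 at 5.07. In each of these 5 pairs the gene was among the 6 lowest of its subunit per length, whereas the copy was above the median deposited level of all genes, 4.99.

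The same held for both 5S rRNA-binding proteins. Rpl5 had a deposited level of 2.68 and its copy Gm15500 one of 7.57. Rpl11 had 2.60 and Gm10288 6.91. Rpl5 also shares 43.9% of its windows with the gene Fam69a, which was listed at 4.18. In the large subunit, Rpl12 was listed at 4.61 against 8.51 for Gm10275. Smaller gaps, of less than 1 on the log2 scale, separated Rpl14 from Rpl14-ps1, Rpl3 from Rpl3-ps1 and Rps7 from Gm6472, whereas Rpl3-ps2 and Gm5879 were listed far below Rpl3.

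**Figure D3:**
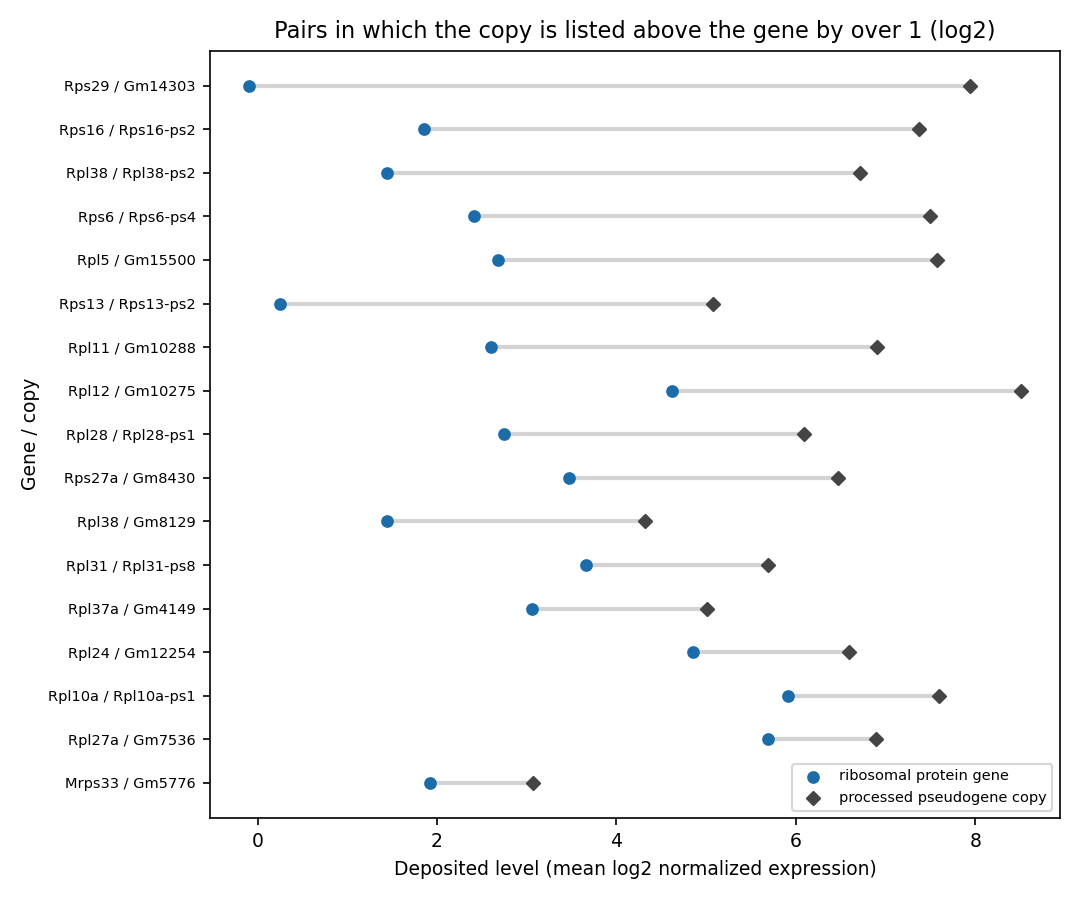
Deposited level (mean log2 normalized expression, horizontal axis) of ribosomal protein genes (circles) and of those processed pseudogenes that share windows with them and were listed above them by over 1 on the log2 scale (diamonds), 1 pair per line, sorted by the difference. The gap is widest for Rps29, at -0.10 against 7.94 for Gm14303.

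Some of these copies, among them Rps16-ps2, Rps6-ps4, Rps13-ps2, Rpl38-ps2 and Rpl10a-ps1, had no unique window at all among annotated transcripts. When the values of the copies were added to their gene on the linear scale, the cytosolic interquartile range fell from 4.30 to 2.41 and the cytosolic median rose from 5.96 to 6.71 in level per length, while the mitochondrial median went from 3.79 to 3.85. Adding a copy can only raise a level, so neither median could fall. A given amount added on the linear scale also raises a low log2 value more than a high one. The step itself thus favoured a narrower range, and the narrowing does not show where the spread came from. Copies were added to 51 cytosolic but only 8 mitochondrial genes, and each sum was divided by the exon length of the gene alone. With the copies added, Rps13 came to 3.69 in level per length and the lowest cytosolic gene was Rpl36a at 1.16. No processed pseudogene that shares windows with Rpl36a had a value. Rpl36a shares 47.4% of its windows with Rpl36a-ps1, a row annotated as protein-coding with a deposited level of 4.38.

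A further 3 low members of the small subunit are annotated as pseudogenes although their symbols follow the rule. They are Rps3a2 and Rps3a3, listed at 2.08 and 2.17 in deposited level, and Rps4y2, named Rps4l in the annotation, listed at 1.21. Rps3a1, the coding gene, was listed at 8.24. Besides Rpl36a, Rps23 is the remaining gene among the 15 lowest. It has 55.0% unique windows, and none of its copies that are annotated as pseudogenes had a value.

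Paralogs were compared with their parent genes per length. Rpl22l1 had a level per length of 5.05 and Rpl22 one of 6.57, so that the paralog was at 0.350 of the parent. With the length of the principal transcript it was at 0.888, so the ratio rests on the length used. Rpl7l1 had 5.04 and Rpl7 8.27, which puts the paralog at 0.106 of the parent, or 0.0618 with the principal transcript. Rps4y2 stood 7.56 below Rps4x. Rpl36al, which encodes nearly the same protein as Rpl36a and whose symbol the rule does not match, went the other way, with a level per length of 5.24 against 1.16 for Rpl36a. Rpl22 had 100% unique windows and Rpl22l1 49.2%, whereas Rpl7l1 had 98.3% and Rpl7 71.8%. Rpl36a had only 16.4% unique windows, and those of Rpl36al were not measured. Rps27l, the p53-induced paralog of Rps27, had a level per length of 7.81 with 100% unique windows. Rps27 itself and Rpl23a were not analysed here.

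The other proteins of the cytosolic ribosome whose symbols fall outside the rule spanned the same range. Gnb2l1, the older name of the scaffold protein Rack1 on the small subunit, was the highest with a level per length of 8.65. Fau, which encodes a ribosomal protein fused to a ubiquitin-like protein, had 2.49 per length. Rps27a, a member that encodes a fusion with ubiquitin, had 2.49 per length, and its copy Gm8430 was listed 2.99 above it in deposited level.

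In the mitochondrial ribosome the large subunit was the higher one. Its median level per length was 4.07 against 3.37 for the small subunit, a difference of 0.70 or 1.62-fold. Of the large-subunit genes, 33 of 45 lay above the small-subunit median, and 9 of the 29 small-subunit genes lay above the large-subunit median. The interquartile ranges were 1.35 and 1.97, wider than the difference. The large subunit stayed the higher one under each of the alternative lengths and gene selections tried, by 0.48 to 0.79.

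The order of single genes in this subunit rests on the length used, since with the principal transcript 2 of the 5 highest and 3 of the 5 lowest genes were the same. With the merged exon length Mrpl54 led with a level per length of 6.54, followed by Mrpl52 with 5.60, Mrpl28 with 5.34, Mrpl10 with 5.18 and Mrpl34 with 5.16. With the principal transcript Mrpl33 led at 7.27, ahead of Mrpl52 at 7.01 and Mrpl54 at 6.99, whereas with its 7326 merged exon bases Mrpl33 was at 3.33. Mrpl10 is the counterpart of Rplp0 in the mitochondrial stalk, and Mrpl12, its stalk partner, was at 5.02, rank 8 of 45. With the principal transcript Mrpl12 and Mrpl10 had ranks 14 and 16. Both were lower per length than the 3 cytosolic stalk genes, of which Rplp2 was the nearest. Mrpl48 was the lowest at 1.20 in level per length, with Mrpl47 at 1.88, Mrpl1 at 2.04, Mrpl32 at 2.71 and Mrpl15 at 2.97. Mrpl15 has 8487 merged exon bases and was the fifth highest of the subunit in deposited level, at 6.05. In deposited level, all 45 genes of this subunit lay between 4.02 and 6.26, a span of 4.74-fold.

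In the small subunit Mrps21, Mrps6, Mrps7, Mrps23 and Mrps15 had the highest levels per length, between 4.96 and 5.29. The lowest were Mrps36 at 0.81, Mrps33 at 1.19, Mrps10 at 1.73, Mrps34 at 1.77 and Mrps35 at 2.11. Mrps36 is now counted with the 2-oxoglutarate dehydrogenase complex rather than with the ribosome. Mrps36 and Mrps33 are also the 2 mitochondrial genes with a higher copy, Mrps36-ps1 at 1.46 against 1.16 and Gm5776 at 3.07 against 1.93 in deposited level. Mrps34 shares 49.5% of its windows with Mapk8ip3, listed at 6.49. The place of Mrps10 rests on its length: its exons add up to 8079 bases over all isoforms, and with the length of its principal transcript its level was 4.72. Mrps35, with 8631 bases, went from 2.11 to 3.16 with the principal transcript, but its place hardly changed, from rank 25 to rank 24 of 29. Mrps25 had the fewest unique windows of the mitochondrial genes, 28.0%, since 72.0% of its windows lie in Nr2c2 as well.

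Mitochondrial ribosomal proteins named otherwise lay within the range of the Mrp genes. Chchd1 had a level per length of 5.46, Aurkaip1 one of 4.99, Dap3 one of 3.60, Ict1, a peptidyl-tRNA hydrolase built into the large subunit, one of 3.51, Ptcd3 one of 3.42 and Gadd45gip1 one of 2.46.

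Translation factors of the cytosol were likewise higher than those of the mitochondria. The 40 cytosolic translation factors had a median level per length of 6.13, with Eef1a1, which delivers aminoacyl-tRNA, at 11.50, Eef2, the translocase, at 10.74 and Eef1b2 at 8.60. The lowest were Eif3j1 at 1.69, Eif2s3x at 2.66 and the cap-binding protein Eif4e at 3.53. Of these 40 genes, 0 were under percentile 25 of all genes per length, against 6 of the 81 cytosolic ribosomal protein genes. The ribosome assembly list had 39 of 40 genes with a value and a median level per length of 4.67. Npm1 at 8.25, Ncl at 7.25 and Rrp1 at 6.26 were its highest genes, and Wdr12 at 1.90, Fbl, the rRNA methyltransferase, at 2.28 and Nmd3 at 2.66 its lowest.

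The mitochondrial translation factors, of which 27 of 34 had a value, had a median level per length of 2.53, under the 3.79 of the mitochondrial ribosomal proteins. Tsfm, the exchange factor of the mitochondrial elongation factor Tufm, was the highest at 6.17, followed by Rbfa at 4.67 and Oxa1l at 3.84. Tufm itself was at 2.72. Gfm2 at 1.16, Tfb1m at 1.26 and Mtif3 at 1.35 were the lowest.

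Transcripts of cytosolic ribosomal proteins are known to start with a C followed by a run of pyrimidines, the 5′ TOP motif, through which the mTOR pathway controls their translation. The RefSeq start sites of GRCm38.p6 were searched for it, and 124 of the 155 members had an entry. A run was counted when a C followed by at least 4 further C or T began within 10 bases on either side of an annotated start, on the strand of the gene. For 9 cytosolic genes the 30 bases from 10 before to 20 after the start are shown: those of the 5 highest levels per length among genes with 1 annotated start, and the next 4 whose run held 7 or more bases. Capitals mark the run.
Rps15, chr10:80292421-80292450, plus strand: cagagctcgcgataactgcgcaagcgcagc
Rplp0, chr5:115559457-115559486, plus strand: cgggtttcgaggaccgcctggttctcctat
Rpl4, chr9:64173377-64173406, plus strand: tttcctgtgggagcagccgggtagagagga
Rpl41, chr10:128549149-128549178, minus strand: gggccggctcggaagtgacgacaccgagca
Rps4x, chrX:102189372-102189401, minus strand: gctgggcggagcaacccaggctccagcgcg
Rpl13a, chr7:45128726-45128755, minus strand: cctgcgacaagaCCTCCTCCTTTCCCaggc
Rps9, chr7:3704031-3704060, plus strand: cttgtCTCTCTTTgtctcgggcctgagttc
Rps26, chr10:128626487-128626516, minus strand: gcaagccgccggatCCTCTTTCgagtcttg
Rps18, chr17:33955646-33955675, minus strand: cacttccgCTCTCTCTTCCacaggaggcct
The run was 14 bases long in Rpl13a, 11 in Rps18 and 8 in Rps9 and in Rps26. The other 5 windows hold no such run that begins within 10 bases of the start, though that of Rplp0 has a stretch of C and T farther downstream. This says only that these letters are not within that distance of the start that RefSeq annotates.

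For the mitochondrial ribosome, the corresponding starts of Mrpl52, the gene highest per length among those with 1 annotated start, and of Mrpl12 and Mrpl45 are shown.
Mrpl52, chr14:54426899-54426928, plus strand: gggccacgcccaCTTCCggttcccttgctc
Mrpl12, chr11:120484627-120484656, plus strand: gCCTCCTCCCggatagagcgtcgcttccgc
Mrpl45, chr11:97315706-97315735, plus strand: cgcgcgCCCCTCCCCTggagagcgtgcgcg
Mrpl12 and Mrpl45 are 2 of the 7 mitochondrial genes with a run of 7 or more. Of genes higher per length than these 2, Mrpl28 and Mrps6 had no such run, and Mrps21 and Mrps7 had runs of 5 and 6 bases. The genes shown all hold a run and do not stand for the set, whose shares follow.

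A run of 5 or more stood at a start of 35 of 59 cytosolic genes (59.3%), of 30 of 65 mitochondrial genes (46.2%) and of 33.3% of the 27025 genes of the promoter table. The order depended on the length of the run: for runs of 4 or more the cytosolic share was 61.0% and the mitochondrial one 70.8%. The sets stood farther apart for longer runs. A run of 7 or more was present in 28 of 59 cytosolic genes (47.5%) and in 7 of 65 mitochondrial genes (10.8%), whereas 13.6% of all genes had one. In the cytosolic subunits the longer run was present in 47.2% of 36 large-subunit and 47.8% of 23 small-subunit genes. The mean number of annotated starts per gene, each of which can hold a run, was 1.19 for cytosolic, 1.09 for mitochondrial and 1.22 for all genes. Among the cytosolic genes, the 28 with a run of 7 or more had a median level per length of 5.51 and the 31 without one a median of 5.91, with wide overlap, from 1.75 to 8.76 and from -1.18 to 10.35.

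**Figure D4:**
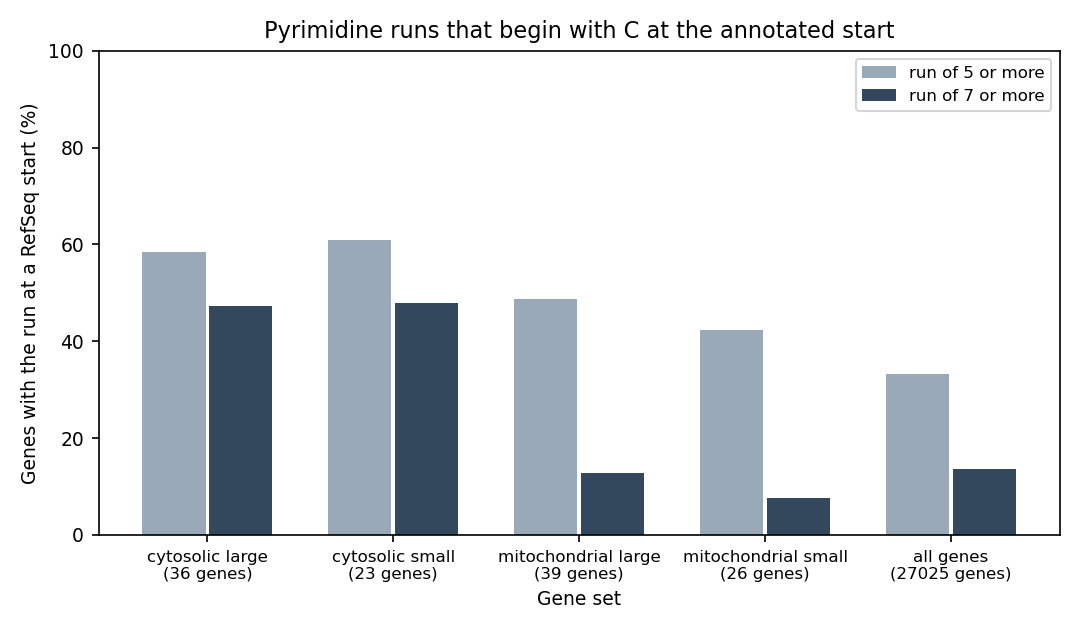
Share of genes (vertical axis, %) with a run of C and T that begins with C within 10 bases of a RefSeq start, for runs of 5 or more and of 7 or more bases, in the 4 sets and in all genes of the promoter table. The longer run is present in 47.2% and 47.8% of the cytosolic sets and in 12.8% and 7.69% of the mitochondrial sets.

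The members were scattered over the genome. Cytosolic genes lay on 19 chromosomes with at most 14 on 1 of them, chromosome 7, and mitochondrial genes on 17 chromosomes with at most 10, on chromosome 11. Members had a median of 5 exons in their principal transcript in both ribosomes. Windows of 100 bases that cross an exon junction made up a median of 49.9% of the windows of cytosolic transcripts and 27.0% of those of mitochondrial transcripts.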

How the data were processed

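RNA-seq was made from 8 cultures, 4 with BMS493 and 4 with DMSO. Per the study's methods and the labels, the authors read stranded mRNA libraries from one end, aligned them to mm10 with STAR 2.3.0e, kept uniquely mapped reads, counted them per Ensembl gene with Rsubread, scaled by trimmed mean of M-values and used limma. The deposited table holds log2 values: the authors' mean over all cultures, which was used, and their own fold change, t and p-values, which were not. Counts, depth per library and single cultures were not analysed here.

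Python 3.11.15 with pandas 2.3.3, numpy 2.4.6 and scipy 1.17.1 was used. Symbols were matched to GENCODE M21 (11783 by symbol, 604 by an older symbol, 202 without a length). Level per length is the deposited level minus log2 of the merged exon length in kb. Shared windows were found by exact match among annotated transcripts, a step checked on simulated sequences. Starts came from RefSeq.

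Genes were named by rule: the 5 highest and 5 lowest per length in each set, paralogs, stalk proteins, Rpl13, the 3 highest and 3 lowest of each related list, and ribosomal proteins outside the symbol rule. Some of these are not reported here. Others, among them genes with copies, were named after their values were seen. The members and lists were chosen with earlier results of these data known.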

Additional observations from a re-analysis of the deposited data

How the results depend on the processing

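No paired analysis was possible because the deposited mean pools all cultures. For the same reason the planned replicate block, leaving out of single cultures, pseudocount and filter for BMS493 against DMSO were not run, and the planned uniqueness over the genome and coding length from proteins were replaced by annotated transcripts and annotated coding length, chosen after seeing the data. Without members under 90% unique windows, 58 mitochondrial and 14 cytosolic genes remained. The cytosolic median then exceeded the mitochondrial one by 3.75 instead of 2.17 in level per length. The cytosolic small subunit was lower than the large one (-0.37 instead of 0.65). The lowest core cytosolic gene, meaning one outside the paralog list, became Rpl39 instead of Rps13. With that change, 4 instead of 74 mitochondrial genes lay above the lowest core gene. With pseudogene values added to their gene, cytosolic exceeded mitochondrial genes by 2.86, a step that can only raise levels and that touched 51 cytosolic but 8 mitochondrial genes. With coding length, the small cytosolic subunit exceeded the large one by 1.45. Against its parent, Rps4y2 changed from -7.56 to -8.30 with the longest transcript and -8.35 without division by length, and with the principal transcript Rpl22l1 changed from -1.52 to -0.17 and Rpl7l1 from -3.23 to -4.02. The share of starts with a run rose for 20 bases on either side to 79.7% of cytosolic, 61.5% of mitochondrial and 52.6% of all genes. For runs of 4 or more it was 61.0% of cytosolic, 70.8% of mitochondrial and 50.8% of all genes, which puts mitochondrial above cytosolic genes, and for runs of 7 or more 47.5%, 10.8% and 13.6%. The causes of these shifts were not tested. The other 42 of 58 values kept their direction and moved by less than 1.5-fold or stayed within the interval of the share. The depth of single libraries, which limits the low levels most, is unknown.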

Other observations

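The table held 42 rows whose symbol is that of a ribosomal protein gene followed by -ps. Their deposited levels ranged from -0.36 for Rps12-ps19 to 8.61 for Rpl14-ps1, with a median of 4.51, and 9 of them were at or over percentile 75 of all genes. Of the 39 whose windows were measured, 8 had no window of 100 bases that was unique among annotated transcripts, and among these Rpl10a-ps1 had a deposited level of 7.59 and Rpl17-ps5 one of 0.85. The annotation types 2 of these rows, Rpl9-ps6 at 5.56 and Rpl36a-ps1 at 4.38, as protein-coding.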
